A study of Mus musculus with 8 samples.

Results

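Gene expression after transfection of a small interfering RNA (siRNA) against Psmd14 was compared with that after a non-targeting siRNA in mouse embryonic stem cells. The comparison takes 4 of the 8 arrays of the study, the 2 titled siPsmd14 and the 2 titled siNonTarget, and it covers 18193 genes, each read by 1 probe set. The cells were of the line NG4, and they were harvested 48 h after the siRNA was introduced by reverse transfection, in which suspended cells are plated onto the siRNA. The remaining arrays, 2 for an siRNA against Sox2 (siSox2) and 2 for an siRNA against Ddb1 (siDdb1), came from the same cells at the same time, and they were used to estimate the spread and to show where siPsmd14 differed from them. The labels give no siRNA sequence and no number of siRNAs per gene, and they do not say whether the 2 arrays of a group came from separate cultures. The p-values therefore rest on the spread between arrays alone, and that spread may be technical.

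The 26S proteasome is the protease that degrades proteins tagged with ubiquitin chains. Its 20S core is a barrel of alpha and beta rings with the peptide-cutting sites inside, and its 19S regulatory particle binds the tagged protein, unfolds it with a ring of ATPases and feeds it into the barrel. PSMD14, also called RPN11 or POH1, is a metalloprotease of the JAMM family that sits in the lid of the 19S particle and cuts the ubiquitin chain off the substrate as it enters. Many short-lived regulators, among them p53, c-Jun, NRF2 and cyclin-dependent kinase inhibitors, are kept low by this route. In embryonic stem cells the proteasome is also studied for its part in keeping the pluripotent state.

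Levels are given as log2 of the deposited array intensity. A change is the difference of 2 group means on that scale, with its standard error (SE), and every test is limma's moderated test on 2 arrays per group, with p adjusted over all probe sets tested. A gene is called, and said to have risen or fallen, where the adjusted p was under 0.05. The 8 arrays had medians of 27.37 to 28.83 intensity units. A change had a median SE of 0.151. The 2 siPsmd14 arrays differed from each other by a median of 0.177 log2 per gene, against 0.145 to 0.151 between the arrays of the other groups. As a sign of RNA integrity, the Actb 3' probes exceeded the 5' probes by 0.346 log2 in siPsmd14 replicate 1, while elsewhere the difference was 0.0962 to 0.214. Ribosomal 18S RNA gave levels of 13.09 in siPsmd14 replicate 2, 12.71 in siDdb1 replicate 2 and between 10.68 and 11.7 elsewhere. The part of these differences in the results was not tested.

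The labelled cell type was checked against marker genes. The 10 stem cell markers, among them Pou5f1, Nanog, Sox2, Zfp42 and Esrrb, read between 10.29 and 14.11 on the siNonTarget arrays and between 9.21 and 14.08 on the siPsmd14 arrays. The 7 genes that define fibroblasts, which often serve as feeder cells in such cultures, read between 2.75 and 5.84 in siNonTarget and between 3.03 and 5.95 in siPsmd14, where the median of all probe sets was 4.81 in siNonTarget. None of these 7 was called (adjusted p of 0.66 or more, limma), and for 6 of them the arrays of both groups overlapped. Of the whole list of 26 fibroblast genes, S100a4 and Tagln rose, where 1.7% of all genes did, and the list's summed intensity was 6593 and 6409 on the siNonTarget arrays and 11490 and 9526 on the siPsmd14 arrays. Of 16 markers of blood and endothelial cells, Tek rose, with sums of 940.5 and 889 in siNonTarget and 1435 and 1200 in siPsmd14. The median change of these 16 was 0.13, and 6 of them had a mean log2 level of at least 5 over all arrays. At an unadjusted p under 0.05 (limma) 4 were higher and 1 lower, where 9.05% and 8.07% of all genes were. Among the dim ones, Adgre1, Hba-a1 and Itgam read under 4 on each siNonTarget and siPsmd14 array. In RNA from a whole culture, a change in the share of cells of one type and a change in RNA per cell cannot be told apart.

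**Figure D1:**
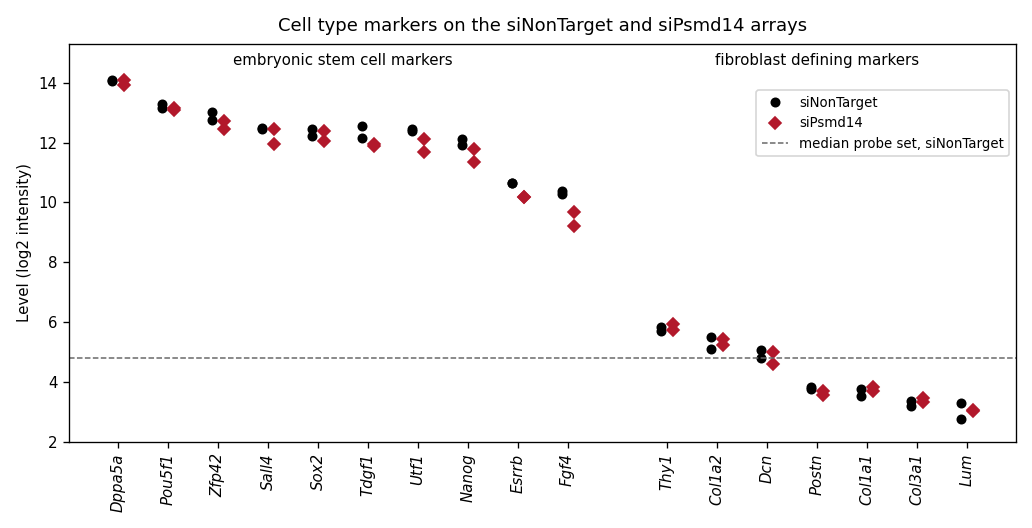
Levels (vertical axis, log2 intensity) of 10 stem cell markers and 7 genes that define fibroblasts on each siNonTarget array (circles) and siPsmd14 array (diamonds); each point is 1 array, and the dashed line is the median probe set in siNonTarget (4.81). The stem cell markers lie far above the line in both groups, and the fibroblast genes reach up to 5.84 in siNonTarget and 5.95 in siPsmd14.

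The targeted transcript was read by a single probe set. Psmd14 read 12.07 and 11.97 on the siNonTarget arrays and 11.88 and 11.75 on the siPsmd14 arrays. The siPsmd14 arrays lay below the controls without overlap, as they did for 24.1% of all genes, at 90.6% and 82.8% of the control mean. The change of -0.21 (SE 0.13, limma, adjusted p = 0.522) did not pass the threshold. It was -0.14 to -0.27 with 1 array left out. The depth of the knockdown is therefore not shown by this probe set, whose position in the transcript relative to the siRNA is not given in the sources used here.

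Of the 18193 genes, 343 (1.89%) were called. Rises numbered 309 (1.7%) and falls 34 (0.187%), and the rises ranged from 1.5 to 24.06-fold, while the falls ranged from 1.51 to 2.34-fold. The change was at least 2-fold for 229 of the rises and for 5 of the falls. At an unadjusted p under 0.05 the split was more even, with 1646 genes higher (9.05%) and 1468 lower (8.07%).

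Each called change held on both siPsmd14 arrays in the sense that neither array overlapped with a control. The calls were made from these same arrays, so this describes the called genes and is not separate support for them. The smallest gap between the nearer siPsmd14 array and the nearer siNonTarget array was 0.513 log2 among the rises and 0.525 among the falls. Over all genes, arrays that do not overlap are common with 2 against 2: 22.4% of genes had both siPsmd14 arrays above both controls and 24.1% had both below. The size of the rise differed between the arrays. It was larger on replicate 1 for 267 of the 309 genes, with a median of 1.51 log2 on replicate 1 and 1.17 on replicate 2. Both arrays lay at least 1 log2 above the control mean for 196 of the 309, replicate 1 alone did so for 45, replicate 2 alone for 6 and neither for 62. The falls were closer to each other, with medians of -0.818 and -0.772, and for 4 of the 34 both arrays lay at least 1 log2 below the control mean.

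Without regard to the test, 140 genes were at least 2-fold below the controls' mean on the first siPsmd14 array, 14 on the second and 5 on both. For rises the counts were 510, 298 and 262. Replicate 1 is also the array with the larger Actb probe difference, and the part of that difference in the unequal counts was not tested. When each siPsmd14 array was set against a different control array, so that no array was shared, the changes of the 18193 genes had a Pearson r of 0.58 in one assignment and 0.527 in the other. Over the 11224 genes with a mean log2 level of at least 5 these were 0.646 and 0.578. Genes are not independent replicates, and these values describe the arrays.

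**Figure D2:**
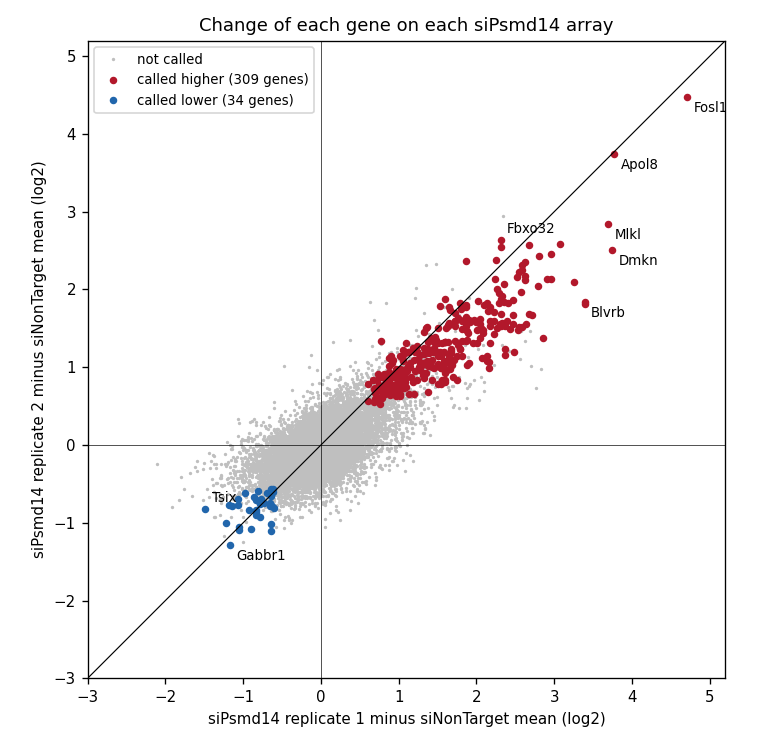
Change from the siNonTarget mean (log2) on siPsmd14 replicate 1 (horizontal axis) and replicate 2 (vertical axis), 1 point per gene; red points are the 309 genes called higher, blue points the 34 called lower, grey points the rest, and the diagonal marks equal change. Most red points lie under the diagonal, where the rise was larger on replicate 1.

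How far the calls rest on single arrays was read from fits with 1 array left out, in which the remaining array of that group is assumed to vary like the other groups. Leaving out the first control array kept 12 of the 309 rises called, and leaving out the second kept 9. Leaving out the first siPsmd14 array kept 36, and leaving out the second kept 248. Of the 34 falls, 0, 0, 1 and 14 remained called, in the same order. All 343 kept their sign in each of these 4 fits. The 8 genes called in every one of them were Fosl1, Fbxo2, Fbxo32, Fetub, Dsp, Lama3, Ets1 and Mt3. In the groups below, the counts that remained called are given in this same order of arrays left out. A change that lost its call in such a fit is not thereby shown to be absent.

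The largest rise was that of Fosl1, which encodes FRA-1, one of the partners that form the AP-1 dimer. It read 3.76 and 4.21 on the siNonTarget arrays and 8.69 and 8.46 on the siPsmd14 arrays. The groups lay 4.24 log2 apart at their nearest, and the change was 4.59 (SE 0.23, 24.1-fold, adjusted p = 0.000347). The other probe set of Fosl1 was also called higher. Apol8, of the apolipoprotein L family, read 3.0 and 4.01 in siNonTarget and 7.27 and 7.24 in siPsmd14 (3.75, SE 0.61, adjusted p = 0.026). Its control arrays were 1 log2 apart, and it was not called without any one of the 4 arrays. Mlkl, the pore-forming effector of necroptosis, read 4.85 and 4.38 in siNonTarget and 8.31 and 7.46 in siPsmd14 (3.26, SE 0.30, 9.61-fold, adjusted p = 0.00319).

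Of the 8 genes called with any array left out, 7 follow. Fbxo2, a ubiquitin ligase substrate receptor that binds sugar-bearing proteins, read 8.93 and 8.82 in siNonTarget and 11.49 and 11.23 in siPsmd14 (2.48, SE 0.14, adjusted p = 0.000434). Fbxo32, the substrate receptor also known as atrogin-1, read 4.14 and 4.70 against 6.73 and 7.06 (2.48, SE 0.20). Fetub, which encodes the protease inhibitor fetuin-B, read 5.80 and 5.83 against 8.39 and 8.14 (2.45, SE 0.14). These 3 genes were 5.6, 5.57 and 5.46-fold higher, and their arrays did not overlap with the controls. Dsp, the desmosome's link to keratin filaments, read 7.80 and 7.85 against 10.15 and 10.37 (2.43, SE 0.18). Lama3, a laminin chain of epithelial basement membranes, read 4.62 and 4.65 against 7.22 and 6.88 (2.42, SE 0.17). The transcription factor gene Ets1 read 4.75 and 4.68 against 6.97 and 7.10 (2.32, SE 0.17), and for Dsp, Ets1 and Fbxo32 the larger rise was on replicate 2. The metallothionein gene Mt3 read 4.87 and 5.08 against 7.32 and 7.05 (2.21, SE 0.16).

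The 30 largest rises spanned 4.5 to 24.06-fold. All 30 had both siPsmd14 arrays at least 1 log2 above the control mean, 27 rose more on replicate 1, and 10, 9, 15 and 29 remained called. Besides those above they held structural and adhesion genes, namely the actin-severing gelsolin gene Gsn (2.83), the integrin subunit gene Itga8 (2.71), the matrix glycoprotein gene Tinagl1 (2.61), Krt8 (2.63), Krt18 (2.37), the caveolin gene Cav2 (2.34) and the membrane-bending Bin1 (2.39). Enzymes among them were Fbp1 of gluconeogenesis (2.52), Hsd3b7 of bile acid synthesis (2.19), the biliverdin reductase gene Blvrb (2.61) and the molybdenum cofactor sulfurase gene Mocos (2.19). The ubiquitin ligase gene Rnf128 (2.27) and Nol3, an inhibitor of apoptosis (2.17), also belonged to them.

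**Figure D3:**
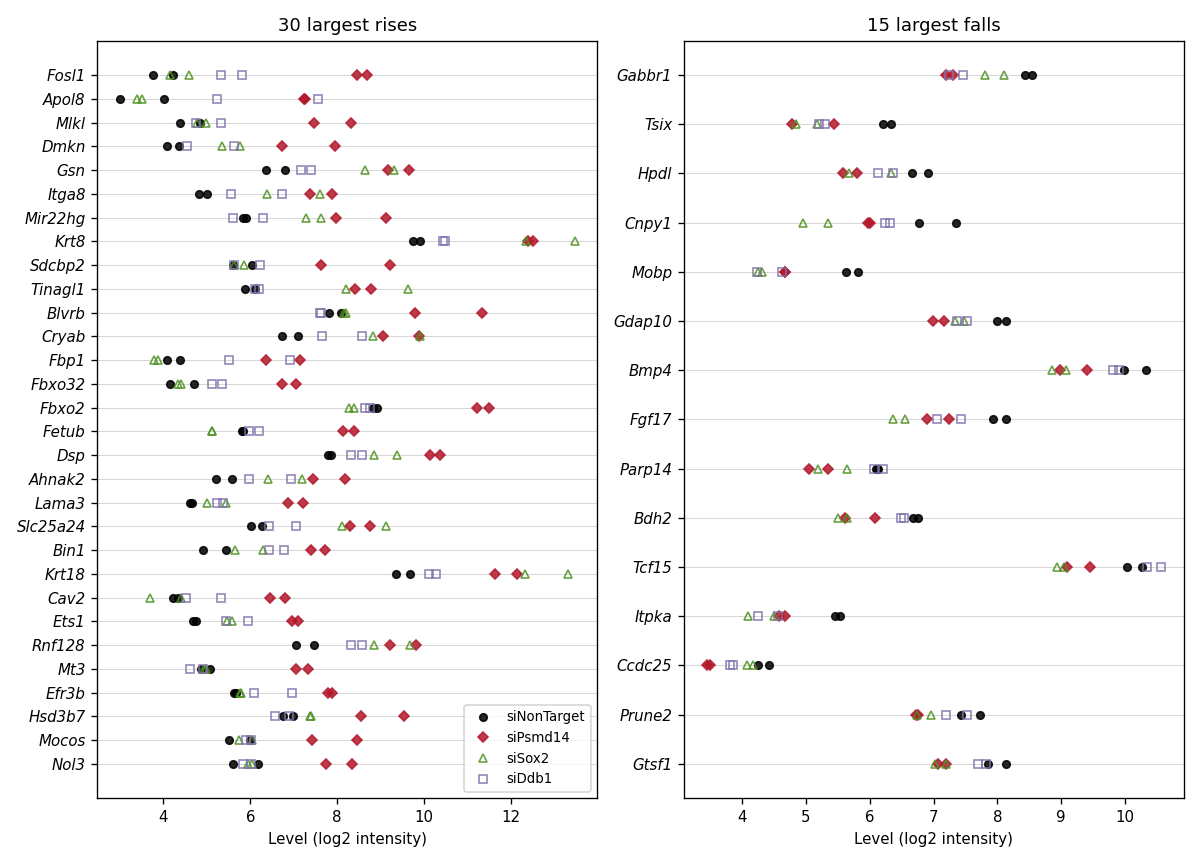
Levels (horizontal axis, log2 intensity) of the 30 genes with the largest rises (left) and the 15 with the largest falls (right) on all 8 arrays, with 1 point per array: siNonTarget circles, siPsmd14 diamonds, siSox2 triangles, siDdb1 squares. For each gene the siPsmd14 arrays lie apart from the siNonTarget arrays; for Krt8 and Krt18 the higher siSox2 array lies above both siPsmd14 arrays, and for Fosl1, Fbxo2 and Mlkl no other group reaches siPsmd14.

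The 8 called genes whose siPsmd14 arrays differed most from each other were all higher on replicate 1. Blvrb read 11.34 on replicate 1 and 9.79 on replicate 2, against 8.08 and 7.82 in siNonTarget. Sdcbp2, the syntenin-2 gene, read 9.23 on replicate 1 and 7.63 on replicate 2, and 5.60 and 6.05 in siNonTarget. Dmkn, which encodes a secreted protein of the epidermis, read 7.96 on replicate 1 and 6.73 on replicate 2, and 4.36 and 4.09 in siNonTarget. Serpinb1b, Mir22hg (the host transcript of miR-22), Igfbp6, Hspb8 and Maff made up the rest of the 8, with changes of 2.12, 2.68, 1.84, 1.77 and 1.58. Of the 8, Blvrb, Mir22hg and Serpinb1b remained called when replicate 1 was left out. For the 309 rises as a whole the median difference between the siPsmd14 arrays was 0.287 log2, and for 16 it was at least 1 log2.

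Genes were then read in 50 lists by function, each described by its called members and its median change beside those of all genes, whose median change was -0.01. Every count of called members below stands against 1.7% of all genes that rose and 0.187% that fell. At an unadjusted p under 0.05 (limma) the shares of all genes were 9.05% higher and 8.07% lower. Of the 50 lists 32 held a called member. The lists were chosen with earlier results of these data known, so their counts are descriptions. The 309 rises included 68 members of lists and 241 genes of none.

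**Figure D4:**
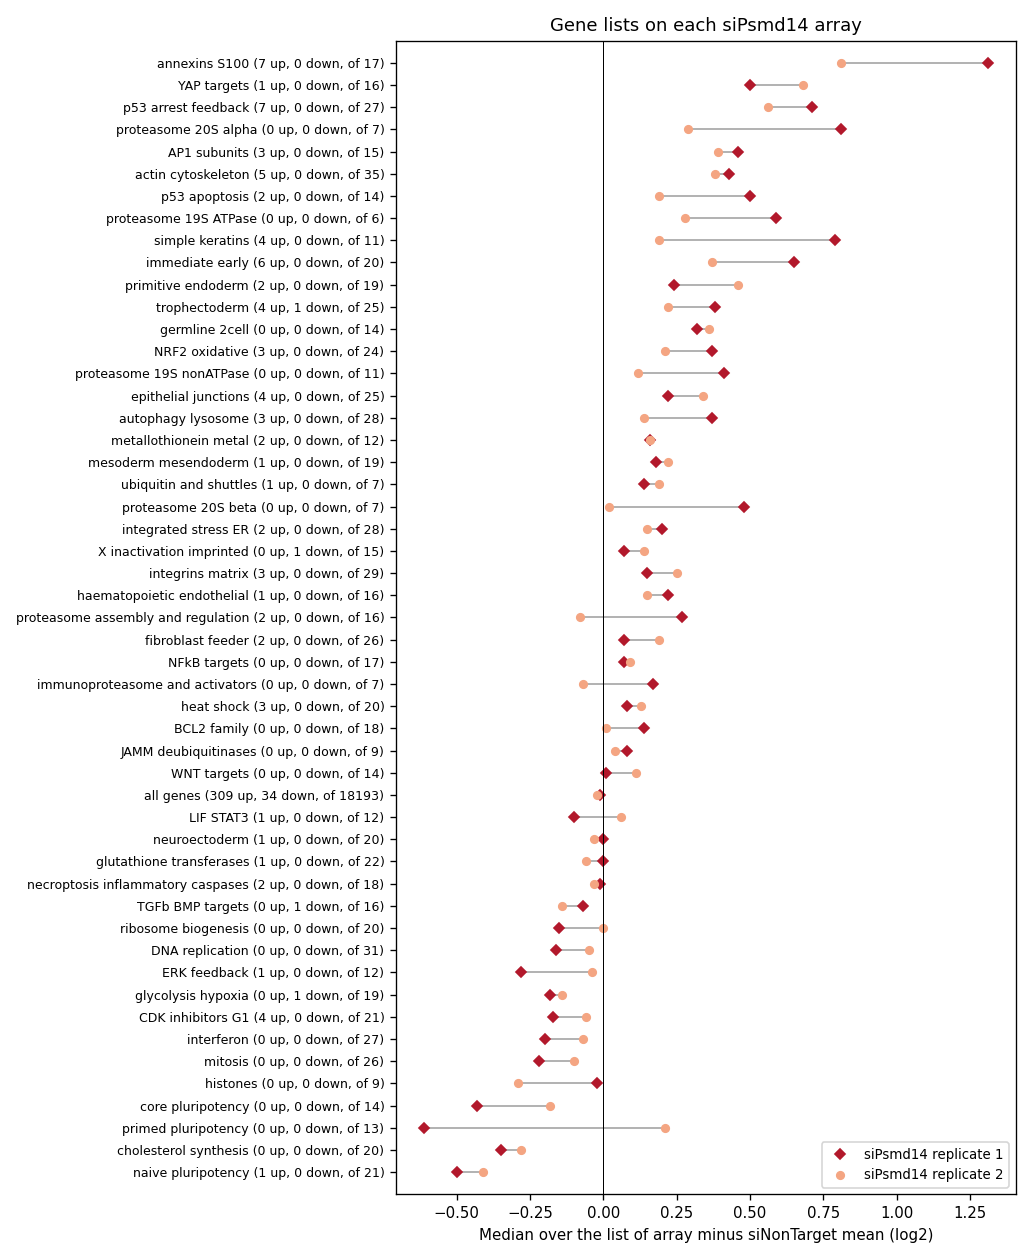
Median change from the siNonTarget mean (horizontal axis, log2) over each gene list on siPsmd14 replicate 1 (diamonds) and replicate 2 (circles); the labels give how many members were called up and down of how many measured, and the row of all genes has 309 up and 34 down of 18193. Annexins and S100 genes lie farthest to the right on replicate 1 (1.31) with 0.81 on replicate 2, and naive pluripotency genes lie lowest by the median change of both arrays together.

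Proteasome genes came first because PSMD14 is a subunit. No 20S or 19S subunit was called on the probe set read for its gene, although most read higher on the siPsmd14 arrays. Psma1 and Psmc6 each had another probe set that was called higher. Of 31 subunits other than Psmd14, 29 had a change above 0, with a median of 0.37, and 15 had an unadjusted p under 0.05 (limma). Both siPsmd14 arrays lay above both controls for 22 of the 31, against 22.4% of all genes. The difference was larger on replicate 1, with a median change of 0.54 on replicate 1 and 0.14 on replicate 2. Without siPsmd14 replicate 2, 4 subunits were called higher, namely Psma1, Psma3, Psma7 and Psmc4, and without siPsmd14 replicate 1 none was.

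By subcomplex, the 7 alpha subunits of the 20S core had a median change of 0.55 and the 6 ATPases of the 19S particle 0.43. For the 11 other 19S subunits it was 0.31, and for the 7 beta subunits, some of which carry the cutting sites, 0.20. Psmd1, a large scaffold subunit of the 19S base, read 11.73 and 11.59 in siNonTarget and 12.35 and 12.17 in siPsmd14 (0.60, SE 0.13, adjusted p = 0.0649). Psmd3 of the lid read 10.55 and 10.36 against 11 and 10.97 (0.53, SE 0.13, adjusted p = 0.0982). For these genes replicate 2 lay as far or nearly as far above the controls as replicate 1. By contrast Psma6, an alpha subunit, read 12.07 and 12.04 against 12.81 and 11.99, so that replicate 1 alone lay above the controls. Psmb5, the chymotrypsin-like catalytic subunit, read 12.57 and 12.53 against 12.64 and 12.29 (-0.08), and Psmd8 of the lid 11.74 and 11.70 against 11.72 and 11.48 (-0.12).

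**Figure D5:**
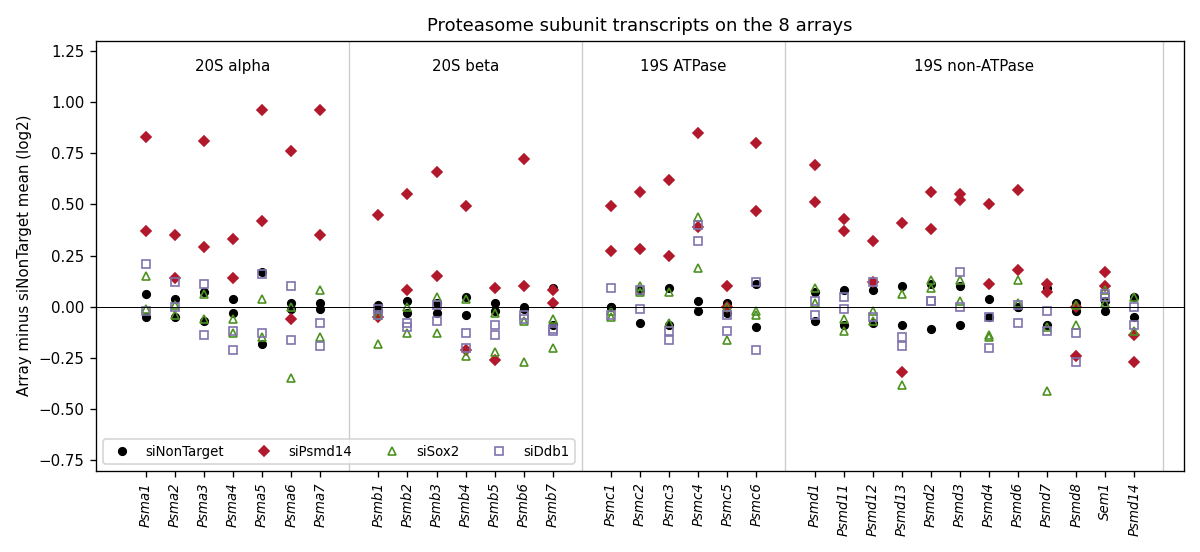
Each array minus the siNonTarget mean (vertical axis, log2) for the proteasome subunits by subcomplex, with Psmd14 at the right; siNonTarget circles, siPsmd14 diamonds, siSox2 triangles, siDdb1 squares, 1 point per array. The higher siPsmd14 diamond of most subunits, at up to 0.96 for Psma5 and Psma7, is replicate 1, while replicate 2 lies closer to the other groups. No subunit was called on the probe set drawn.

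Among helpers of the proteasome, 2 of 16 genes for assembly and regulation rose, and none fell. Zfand2a, the arsenite-inducible proteasome-associated protein AIRAP, read 8.92 and 8.64 in siNonTarget and 10.34 and 9.78 in siPsmd14 (1.27, SE 0.19, adjusted p = 0.019). Zfand5, which binds ubiquitin chains and the proteasome, read 10.67 and 10.52 against 11.47 and 11.32 (0.80, SE 0.13, adjusted p = 0.0233). The list's median was 0.09. Nploc4, a cofactor that brings ubiquitinated substrates to the p97 ATPase, rose from 9.08 and 9.05 to 9.85 and 9.67 (0.69, SE 0.13, adjusted p = 0.0392) as 1 of 7 ubiquitin and shuttle genes. Of Zfand2a, Zfand5 and Nploc4 none remained called without a siNonTarget array or without siPsmd14 replicate 1. Ecpas, an adaptor of the 26S proteasome (1.40, SE 0.19, adjusted p = 0.0146), and Ubxn4, another p97 cofactor (0.99, SE 0.15, adjusted p = 0.019), stood outside the lists and were picked out after their values were seen.

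Other members of these families gave no calls on the probe set read for each gene. Nfe2l1, the transcription factor that drives proteasome subunit genes, read 9.95 and 9.69 in siNonTarget and 9.86 and 10 in siPsmd14 (0.11, adjusted p = 0.802). Vcp, which encodes p97, read 12.66 and 12.44 against 13.01 and 13.04 (0.47, adjusted p = 0.12). The immunoproteasome and activator list had 0 of 7 called (limma), with 1 member higher and 1 lower at an unadjusted p under 0.05, namely the activator gene Psme4 (0.43) and the catalytic subunit gene Psmb10 (-0.54). Of the 5 other probe sets of Psme4, 2 were called higher than in siNonTarget. On its brightest probe set Psme4 was higher than in siSox2 (0.61, limma, adjusted p = 0.0417). Of 9 deubiquitinases of the JAMM family, which hold PSMD14's relatives, 0 were called and 1, Mpnd (-0.36, adjusted p = 0.225), had an unadjusted p under 0.05. Cops5, the catalytic subunit of the COP9 signalosome, read 11.39 and 11.40 against 11.78 and 11.54 (0.27, adjusted p = 0.39).

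Of 20 heat shock genes measured, 3 rose and none fell, and the 3 encode small heat shock proteins or their partner, which hold misfolded proteins for refolding or autophagy. Cryab, alpha-B-crystallin, read 7.10 and 6.72 in siNonTarget and 9.88 and 9.05 in siPsmd14 (2.55, SE 0.41, adjusted p = 0.0262). Hspb8 read 7.45 and 7.56 against 9.88 and 8.66 (1.77, SE 0.33, adjusted p = 0.0426), and its co-chaperone Bag3 7.49 and 6.99 against 8.78 and 8.22 (1.26, SE 0.23, adjusted p = 0.041). The inducible HSP70 gene Hspa1b read 9.43 and 9.42 against 10.13 and 10.53 (0.90, adjusted p = 0.0826) and did not pass, though another of its probe sets was called higher. The HSP40 gene Dnajb1 read 10.93 and 10.38 against 11.39 and 11.31 (0.70, adjusted p = 0.162). The list's median was 0.04, and 0, 0, 0 and 3 of its rises remained called.

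Of 28 genes of the integrated stress response and of endoplasmic reticulum stress, Cebpb and Ddit3 rose, with a list median of 0.19. Cebpb, a transcription factor gene, read 7.77 and 7.93 in siNonTarget and 9.18 and 9.02 in siPsmd14 (1.25, SE 0.15, adjusted p = 0.00966). Ddit3, which encodes CHOP, read 6.55 and 6.88 against 8.30 and 7.54 (1.21, SE 0.24, adjusted p = 0.0482). Other parts of the response did not pass. Atf4, its central transcription factor gene, read 11.24 and 11.68 against 11.77 and 11.32 (0.09), with overlapping groups, and its target Trib3 had a change of 0.27 (adjusted p = 0.64). Of the 2 rises 0, 0, 0 and 2 remained called.

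Of 28 autophagy and lysosome genes 3 rose, and the median was 0.27. Sqstm1, the ubiquitin-binding autophagy receptor p62, read 10.38 and 10.11 in siNonTarget and 12.26 and 11.72 in siPsmd14 (1.75, SE 0.23, 3.35-fold, adjusted p = 0.012). Tax1bp1, another such receptor, read 10.13 and 10.19 against 10.96 and 10.87 (0.75, SE 0.12, adjusted p = 0.024). Ctsd, the lysosomal protease cathepsin D, read 10.08 and 9.97 against 11.59 and 11.21 (1.37, SE 0.17, adjusted p = 0.00993). Ctsd was also higher than in siSox2 (0.92, adjusted p = 0.0247) and in siDdb1 (1.01, adjusted p = 0.0485). Further rises outside the list, named after their values were seen, were the lysosomal glucosidase gene Gaa (2.0, SE 0.24, adjusted p = 0.00966) and the proton pump subunit gene Tcirg1 (1.43, SE 0.22, adjusted p = 0.0227). Of the 3 rises in the list 0, 0, 0 and 3 remained called.

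Genes of the NRF2 response, which makes reducing power and detoxifying enzymes, rose in part. Of 24 measured, 3 rose and none fell, with a median of 0.32. Me1, the malic enzyme that makes NADPH, read 7.99 and 7.96 in siNonTarget and 10.03 and 9.53 in siPsmd14 (1.81, SE 0.19, adjusted p = 0.00489), and it stayed called without either siPsmd14 array. The peroxiredoxin-restoring Srxn1 read 7.28 and 7.35 against 9.45 and 8.39 (1.61, SE 0.30, adjusted p = 0.0418), and catalase, Cat, 8.92 and 9.17 against 10.03 and 9.82 (0.88, SE 0.16, adjusted p = 0.04). Of the 3 rises 0, 0, 1 and 3 remained called. The classical target Nqo1 read 7.21 and 7.32 against 8.24 and 7.01, so that its siPsmd14 arrays lay on either side of the controls. Hmox1, heme oxygenase, read 9.98 and 9.85 against 10.58 and 10.38 (0.57, adjusted p = 0.385).

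Among neighbours of this response, Bach1, a repressor of heme oxygenase and other NRF2 targets, read 8.89 and 8.70 in siNonTarget and 10.43 and 10.13 in siPsmd14 (1.48, SE 0.14, adjusted p = 0.00408). Its relative Bach2 read 4.07 and 4.17 against 5.98 and 6.49 (2.12, SE 0.21, adjusted p = 0.00408). Both rose with either siPsmd14 array left out, and both were named after their values were seen. Of 22 glutathione transferase genes, Gsto1 rose (1.95, SE 0.27, adjusted p = 0.0134), and the list's median was -0.04. Of 12 metal-handling genes, Mt3 and the zinc transporter gene Slc30a4 (0.82, SE 0.15, adjusted p = 0.0392) rose, with 1, 1, 1 and 1 called with an array left out.

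Of 27 p53 targets for cell cycle arrest and feedback, 7 rose and none fell, which is 25.9% against 1.7% of all genes. The median was 0.61, and both siPsmd14 arrays lay above both controls for 20 of the 27, against 22.4% of all genes. Mdm2, the ubiquitin ligase that degrades p53, read 10.12 and 10.05 in siNonTarget and 11.81 and 11.62 in siPsmd14 (1.63, SE 0.15, 3.09-fold, adjusted p = 0.00319). Cdkn1a, which encodes the cyclin-dependent kinase inhibitor p21, read 8.41 and 8.45 against 9.87 and 9.62 (1.32, SE 0.24, adjusted p = 0.0423). The kinase gene Plk2 read 8.68 and 8.97 against 11.14 and 10.35 (1.92, SE 0.33, adjusted p = 0.031). The other 4 were Ddit4l (1.99), Tgfa (1.08), Sfn, the 14-3-3 sigma gene (1.40), and Ccng2 (0.86). Of the 7, 0, 0, 1 and 5 remained called, Mdm2 being the 1. The list's median difference between siPsmd14 and siDdb1 was 0.00, and 1 member, Tgfa (0.91, adjusted p = 0.0378), was higher in siPsmd14 than in siDdb1.

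Of 14 p53 targets for cell death, the membrane protein gene Perp (2.0, SE 0.35, adjusted p = 0.0337) and the apoptosome gene Apaf1 (1.14, SE 0.21, adjusted p = 0.0427) rose, with a median of 0.44 and 0, 0, 0 and 1 remaining called. Of 18 BCL2 family genes 0 were called (limma), with 3 higher and 1 lower at an unadjusted p under 0.05. Bcl2l10 of that family read 6.43 on siPsmd14 replicate 1 and 4.39 on replicate 2, against 3.45 and 3.88 in siNonTarget (1.75, adjusted p = 0.153), and it passed without replicate 2. Of 18 necroptosis and inflammatory caspase genes, Mlkl and Ripk3, the kinase that activates MLKL, rose. Ripk3 read 7.0 and 7.18 in siNonTarget and 7.88 and 7.85 in siPsmd14 (0.77, SE 0.15, adjusted p = 0.0454). The list's median was -0.04 and 1, 0, 1 and 1 remained called. Casp8, which restrains necroptosis, read 5.77 and 5.17 against 6.31 and 6.02 (0.69, adjusted p = 0.15).

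Among 21 cyclin-dependent kinase inhibitors and G1 regulators, Cdkn1a, Cdkn2b, Cdkn2a and Rb1 rose while the list's median was -0.17. Cdkn2b, which encodes p15, read 6.46 and 6.27 in siNonTarget and 8.01 and 7.90 in siPsmd14 (1.59, SE 0.16, 3.01-fold, adjusted p = 0.00453). Its neighbour Cdkn2a read 7.90 and 7.76 against 9.03 and 8.49 (0.93, SE 0.18, adjusted p = 0.0464). Rb1, the retinoblastoma gene, read 7.24 and 7.99 against 9.51 and 9.23 (1.75, SE 0.34, adjusted p = 0.0484). Of the 4 rises 0, 0, 1 and 2 remained called. The proliferation lists held no call (limma). Of 31 DNA replication genes 0 were higher and 3 lower at an unadjusted p under 0.05 (median -0.10), and of 26 mitosis genes 0 and 5 (median -0.19). For 14 of the mitosis genes both siPsmd14 arrays lay below both controls, against 24.1% of all genes. Ccnb2, a mitotic cyclin, read 11.62 and 11.72 against 11.32 and 11.16 (-0.43, adjusted p = 0.162), and the kinase gene Aurka 11.24 and 11.23 against 10.66 and 10.93 (-0.44, adjusted p = 0.159).

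AP-1 is a dimer of JUN, FOS and related subunits that responds to stress and growth signals. Of 15 measured subunits 3 rose and none fell, with a median of 0.55. Beside Fosl1, Jun read 6.95 and 6.72 in siNonTarget and 8.93 and 8.63 in siPsmd14 (1.95, SE 0.23, adjusted p = 0.00789). Maff, a small MAF subunit, read 6.09 and 6.08 against 8.24 and 7.08 (1.58, SE 0.31, adjusted p = 0.0489). The members split, since Atf3 read 4.55 and 5.15 against 7.47 and 6.19, a change of 1.98 on uneven arrays that did not pass (adjusted p = 0.11), while Fosl2 read 4.90 and 4.81 against 4.85 and 4.99 (0.06). Of the 3 rises 1, 1, 1 and 3 remained called, Fosl1 being the 1. The difference of Jun from siSox2 was -0.27 (adjusted p = 0.659), whereas Fosl1 was higher in siPsmd14 than in siSox2 (4.20, adjusted p = 0.000125) and in siDdb1 (3.01, adjusted p = 0.00343).

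The AP-1 element was looked for in the promoters of the called genes. The windows were the 250 bases before each RefSeq transcript start (GRCm38.p6), and 250 of the 309 rising genes matched, with 323 windows. The letters TGANTCA, which read the same on both strands apart from the middle base, stood in 39 of those windows (12.1%, 36 genes), against 5.62% of the 18109 windows of all genes measured and 6.75% of all 32851 windows. A match is a description and does not show that the factor binds there, and no test was made of the difference. The promoters printed are those of genes named in the text or its rule whose match lies close to the start, and they show how the element sits next to different surroundings. They are lower case with the element in capitals, on the plus strand, which is the strand of each gene. Srxn1 (chr2:152105399-152105523) holds 2 elements, whose first bases lie at -102 and -45 from the start. Plaur (chr7:24462358-24462482) holds 1 at -69, Cav2 (chr6:17281060-17281184) 1 at -92, Sdcbp2 (chr2:151572498-151572622) 1 at -44 and Bag3 (chr7:128523458-128523582) 1 at -20. One of the Dmkn starts (chr7:30763631-30763755) has 1 at -89 and Tex19.1 (chr11:121146018-121146142) has 2, at -117 and -101.
Srxn1: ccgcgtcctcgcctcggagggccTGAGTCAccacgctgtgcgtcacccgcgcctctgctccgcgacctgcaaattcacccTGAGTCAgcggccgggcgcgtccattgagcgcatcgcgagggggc
Plaur: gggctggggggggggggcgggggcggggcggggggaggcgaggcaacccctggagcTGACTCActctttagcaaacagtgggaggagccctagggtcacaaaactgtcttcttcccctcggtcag
Cav2: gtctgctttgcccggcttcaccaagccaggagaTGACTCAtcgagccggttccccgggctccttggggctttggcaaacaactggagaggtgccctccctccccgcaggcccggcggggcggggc
Sdcbp2: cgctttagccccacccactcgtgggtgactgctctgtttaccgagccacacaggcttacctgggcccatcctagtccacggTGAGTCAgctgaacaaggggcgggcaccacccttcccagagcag
Bag3: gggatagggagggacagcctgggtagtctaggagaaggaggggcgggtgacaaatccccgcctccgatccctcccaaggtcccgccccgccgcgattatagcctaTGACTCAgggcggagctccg
Dmkn: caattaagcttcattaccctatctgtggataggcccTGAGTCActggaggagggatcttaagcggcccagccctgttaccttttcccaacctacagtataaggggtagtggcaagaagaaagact
Tex19.1: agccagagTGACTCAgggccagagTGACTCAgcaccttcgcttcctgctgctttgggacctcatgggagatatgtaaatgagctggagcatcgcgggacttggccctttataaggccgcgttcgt

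Of the genes shown, Srxn1, Cav2, Sdcbp2, Bag3 and Dmkn have their values above, and Plaur and Tex19.1 below. Other elements were searched on both strands of the same 250 bases. The antioxidant response element, TGACNNNGC, which can overlap the AP-1 letters, stood in 13.6% of windows of rising genes, 11.5% of those of all genes measured and 10.2% of all windows. The heat shock element core, GAANNTTC, stood in 3.72%, 5.48% and 6.69%. The cyclic AMP and ATF element, TGACGTCA, stood in 2.17%, 2.12% and 1.55%.

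Immediate early genes, which respond within minutes to growth signals, held 6 rises and no fall among 20 measured, with a median of 0.39. Ier3 read 7.57 and 7.36 in siNonTarget and 9.12 and 9.03 in siPsmd14 (1.61, SE 0.17, adjusted p = 0.00596), and it was higher than in siSox2 and in siDdb1. Plaur, the receptor of the protease urokinase, read 8.04 and 8.07 against 10.10 and 9.42 (1.71, SE 0.31, adjusted p = 0.0402). Phlda1 (2.06, SE 0.31), the transcription factor gene Klf6 (0.90, SE 0.16) and the phosphatase genes Dusp1 (1.18, SE 0.22) and Dusp5 (1.08, SE 0.21) were the other 4. Fos was not among them, with 7.24 and 7.15 against 8.01 and 7.59 (0.60, adjusted p = 0.292). Of the 6 rises 0, 0, 0 and 3 remained called.

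Signalling lists had few calls. Of 16 YAP targets, Axl, a receptor kinase gene, rose (4.83 and 4.22 against 5.94 and 5.91, change 1.39, SE 0.23, adjusted p = 0.027), and 10 were higher at an unadjusted p under 0.05 (median 0.62). Ccn1 of that list read 8.35 and 8.04 against 9.56 and 9.36 (1.26, adjusted p = 0.0693), and Wwtr1, which encodes the YAP relative TAZ, 7.84 and 7.86 against 9.15 and 8.96 (1.21, adjusted p = 0.0693). Axl was called in none of the 4 fits with an array left out. Of 12 ERK feedback genes Phlda1 rose, and of 12 genes of the LIF and STAT3 pathway, which sustains mouse stem cells, the kinase gene Jak2 rose (5.71 and 5.72 against 6.61 and 6.48, change 0.83, SE 0.16, limma, adjusted p = 0.0447). In the LIF and STAT3 list 5 were higher and 1 lower at an unadjusted p under 0.05 (median -0.02). Of 16 TGF-beta and BMP targets Bmp4 fell, with 1 higher and 6 lower at an unadjusted p under 0.05 (median -0.06). Of 27 interferon genes 0 were called (limma), with 3 higher and 2 lower at an unadjusted p under 0.05 (median -0.18), and Tap1 (1.35, adjusted p = 0.0674) and B2m (0.91, adjusted p = 0.0737) of antigen presentation came closest. For Tap1 none of the 3 other probe sets was called higher, and the median over its probe sets gave -0.06, which turns the direction. The 1 other probe set of B2m was called higher. Of 17 NF-kB targets 0 were called, with 2 and 1, and of 14 WNT targets 0 were called, with 4 and 3.

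Annexins and S100 proteins, which bind calcium and membranes, had the largest share of rises of the 50 lists. Of 17 measured 7 rose and none fell, which is 41.2% against 1.7% of all genes, and the median was 1.12. S100a10, the partner of annexin A2, read 10.58 and 10.59 in siNonTarget and 12.47 and 11.61 in siPsmd14 (1.46, SE 0.23, adjusted p = 0.024). Anxa3 read 7.70 and 8.05 against 10.26 and 9.46 (1.99, SE 0.31, adjusted p = 0.0229), and Anxa5 7.54 and 7.73 against 9.15 and 8.79 (1.33, SE 0.22, adjusted p = 0.028). The other rises were those of Anxa2 (1.51), Anxa4 (1.12), Anxa7 (1.2) and S100a4 (1.18). Anxa1 read 8.14 and 8.03 against 10.77 and 9.54 (2.07, adjusted p = 0.0684) and did not pass. Anxa6, by comparison, read 8.19 and 8.0 against 8.15 and 8.14 (0.05). Of the 7 rises 0, 0, 0 and 7 remained called. Of the 17, only S100a10 and S100a4 were also higher than in siSox2, by 1.2 and 1.77 (limma, adjusted p = 0.0311 and 0.00245), against 1.98% of all genes. The list's median difference between siPsmd14 and siSox2 was -0.18, and 0 members were lower than in siSox2.

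Simple keratins are the intermediate filaments of single-layered epithelia and of the trophectoderm. Of 11 measured 4 rose and none fell, with a median of 0.40. Krt8 read 9.92 and 9.74 in siNonTarget and 12.51 and 12.40 in siPsmd14 (2.63, SE 0.29, adjusted p = 0.00633). Its partner Krt18 read 9.67 and 9.36 against 12.14 and 11.64 (2.37, SE 0.30, adjusted p = 0.0109), while Krt7 changed by 1.94 and Krt19 by 1.77. Both Krt8 arrays of siPsmd14 were thus within 0.11 log2 of each other. Of the 4 rises 0, 0, 0 and 4 remained called. None was higher than in siSox2, and Krt7 was lower than there (-2.54, adjusted p = 0.00387), against 2.05% of all genes lower than in siSox2.

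Of 25 genes of epithelial junctions 4 rose and none fell, with a median of 0.29. Beside Dsp they were the plakophilin gene Pkp3 (1.37, SE 0.16, adjusted p = 0.00781), the cornified envelope gene Ppl (0.88, SE 0.13, adjusted p = 0.0204) and Perp, which also lies in desmosomes. Of the 4 rises 1, 1, 1 and 4 remained called, Dsp being the 1. Of 29 integrin and matrix genes, Itga8 and the basement membrane collagen genes Col4a2 (1.70, SE 0.23, adjusted p = 0.0129) and Col4a1 (1.16, SE 0.20, adjusted p = 0.0307) rose, with 0, 0, 0 and 2 remaining called. These collagens were lower in siPsmd14 than in siSox2 (-1.59 and -1.54, adjusted p = 0.00912 and 0.00544).

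Of 35 actin cytoskeleton genes 5 rose and none fell, with a median of 0.46 and both siPsmd14 arrays above both controls for 26, against 22.4% of all genes. Gsn read 6.80 and 6.37 in siNonTarget and 9.65 and 9.17 in siPsmd14 (2.83, SE 0.25, adjusted p = 0.00319), and 4 of its 5 other probe sets were called the same way. The membrane linker moesin, Msn, read 10.38 and 10.21 against 11.38 and 11.11 (0.95, SE 0.14, adjusted p = 0.0171), and the actin-bundling plastin gene Pls3 8.16 and 8.31 against 9.12 and 9.14 (0.89, SE 0.14, adjusted p = 0.0213). Tagln (1.66, SE 0.27) and Pdlim7 (1.14, SE 0.21) were the others. Of the 5 rises 1, 0, 1 and 5 remained called, Gsn being the 1. Tagln is also a fibroblast gene, and the summed fibroblast list given above rose with it. The 7 defining fibroblast genes read up to 5.84 in siNonTarget and up to 5.95 in siPsmd14, where the median of all probe sets was 4.81 in siNonTarget. The part of fibroblasts in the rise of Tagln was not tested.

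Lineage lists were read for signs of differentiation. Of 25 trophectoderm genes the 4 keratins rose and Bmp4 fell, with a median of 0.32. In siPsmd14 11 of the 25 were lower than in siSox2, against 2.05% of all genes. Cdx2, the trophectoderm transcription factor gene, read 5.10 and 5.19 in siNonTarget and 5.63 and 5.40 in siPsmd14 (0.37, adjusted p = 0.233). Of 19 primitive endoderm genes the 2 collagens rose (median 0.34), whereas the transcription factor genes Gata6 (4.30 and 3.76 against 4.88 and 4.73, change 0.78) and Sox17 (3.84 and 3.40 against 4.20 and 4.28, change 0.63) did not pass, with adjusted p of 0.411 and 0.116. Of 19 mesoderm and mesendoderm genes Lhx1 rose (0.93, SE 0.16, adjusted p = 0.0357), and of 20 neuroectoderm genes the filament gene Nes rose (0.76, SE 0.14, adjusted p = 0.0415). Of 14 germline and 2-cell-stage genes 0 were called (limma), with 4 higher and 0 lower at an unadjusted p under 0.05, and Tex19.1, a placental and germline gene also read among naive genes, rose (9.20 and 8.94 against 10.69 and 10.03, change 1.29, SE 0.25, adjusted p = 0.0455).

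Pluripotency genes gave no fall past the threshold (limma), but nearly all read lower. Of 14 core genes 14 had a change below 0 (median -0.30) and 5 were lower at an unadjusted p under 0.05. Of 21 naive genes 18 lay below 0 (median -0.55) and 12 were lower at an unadjusted p under 0.05, against 8.07% of all genes. For 9 of the core and 15 of the naive genes both siPsmd14 arrays lay below both controls, against 24.1% of all genes. Esrrb read 10.66 on both siNonTarget arrays and 10.18 on both siPsmd14 arrays (-0.48, adjusted p = 0.105). Fgf4, a growth factor made by the inner cell mass, read 10.39 and 10.29 against 9.21 and 9.69 (-0.89, adjusted p = 0.0826). Nanog read 11.93 and 12.13 against 11.35 and 11.80 (-0.45, adjusted p = 0.289), Pou5f1 13.16 and 13.30 against 13.15 and 13.08 (-0.12, adjusted p = 0.731), and Sox2 12.23 and 12.47 against 12.07 and 12.40 (-0.11, adjusted p = 0.827). Of the 3 naive genes above 0, Tex19.1 rose (1.29), as given above, and was the only called member of the naive list. Klf5 was another of the 3 (0.10). The 13 primed genes differed between the arrays, with a median of -0.61 on replicate 1 and 0.21 on replicate 2, and 0 were called, with 1 higher and 3 lower at an unadjusted p under 0.05.

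Cholesterol synthesis genes showed a similar pattern, with 0 of 20 called (limma), 10 lower and 0 higher at an unadjusted p under 0.05, and 19 below 0 (median -0.32). Nsdhl of the later steps read 9.57 and 9.23 in siNonTarget and 8.95 and 8.87 in siPsmd14 (-0.49, adjusted p = 0.149). Mvk, mevalonate kinase, read 7.83 and 7.54 against 7.10 and 7.30 (-0.48, limma, adjusted p = 0.152). In siPsmd14 4 of the 20 were lower than in siSox2, against 2.05% of all genes. Of 19 glycolysis and hypoxia genes the phosphofructokinase gene Pfkp fell (10.20 and 10.54 against 9.58 and 9.64, change -0.76, SE 0.14, adjusted p = 0.0447), with 0, 0, 0 and 0 remaining called. In the glycolysis and hypoxia list 7 were lower and 0 higher at an unadjusted p under 0.05 (median -0.16). Of 20 ribosome biogenesis genes and 9 histone genes 0 were called, with 2 and 3 lower and 0 higher at an unadjusted p under 0.05.

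The 34 falls spanned a narrower range than the rises. Gabbr1, a subunit of the GABA-B receptor, read 8.43 and 8.54 in siNonTarget and 7.31 and 7.2 in siPsmd14 (-1.22, SE 0.15, 2.34-fold lower, adjusted p = 0.00966). Of its 3 other probe sets 1 was called lower. Tsix, the antisense transcript that opposes Xist, read 6.21 and 6.33 against 4.78 and 5.44 (-1.16, SE 0.21, adjusted p = 0.0396); which strand of this overlapping pair the probe set reads was not checked. Cnpy1, a modulator of FGF receptors, read 6.77 and 7.36 against 6.01 and 5.97 (-1.07, SE 0.20, adjusted p = 0.0447), and the myelin gene Mobp 5.82 and 5.62 against 4.67 on both arrays (-1.05, SE 0.15, adjusted p = 0.0185).

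Signalling ligands and early embryonic regulators were among the other falls. Bmp4 read 10.34 and 9.99 against 8.98 and 9.40 (-0.98, SE 0.18, adjusted p = 0.0415), and Fgf17 7.93 and 8.13 against 6.89 and 7.25 (-0.96, SE 0.18, adjusted p = 0.0432). Tcf15, a transcription factor gene of early mesoderm, read 10.04 and 10.27 against 9.09 and 9.45 (-0.88, SE 0.16, adjusted p = 0.0412). It was lower than in siDdb1 (-1.19, adjusted p = 0.0228), against 0.132% of all genes, and the difference from siSox2 was 0.28 (adjusted p = 0.473). Of the 15 largest falls, which lay between 1.80 and 2.34-fold, 8 were larger on replicate 1, and 0, 0, 1 and 9 remained called, the 1 being the dehydrogenase gene Bdh2 (-0.88). Of the 34 falls, 5 were lower than in siSox2 and 2 lower than in siDdb1, and 0 were lower than in both.

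The rises were set against the other knockdowns in the same fit. These comparisons share the siPsmd14 arrays that chose the rises, so the counts are descriptions. Of the 309 rises, 145 were also higher in siPsmd14 than in siSox2, against 361 genes (1.98%) of all measured, 10 were lower there, and 76 were higher than in siDdb1, against 83 genes (0.456%) of all measured. The 55 rises higher than in both included Fosl1, Mlkl, Fbxo2, Fbxo32, Fetub, Dsp, Lama3, Ets1, Mt3, Blvrb, Me1, Bach1, Bach2, Ctsd, Pkp3, S100a4, Ecpas, Ubxn4 and Nploc4. Fbxo2 was 3.02 log2 above siSox2 and 2.66 above siDdb1 (adjusted p = 6.01e-05 and 0.000556), and Fetub 3.14 and 2.17 (adjusted p = 6.01e-05 and 0.00126). Mlkl was 3.01 and 2.85 above them (adjusted p = 0.00188 and 0.00999). No rise of the p53 lists was among the 55, while Apol8 and Fbp1 were higher than in siSox2 (3.81 and 2.93) with differences from siDdb1 of 0.86 and 0.54 (adjusted p = 0.7 and 0.717). Cebpb was lower than in siSox2 (-1.05, adjusted p = 0.00963) and higher than in siDdb1 (1.2, adjusted p = 0.0166). A difference that misses the threshold does not show that the groups are alike.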

How the data were processed

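RNA from 8 arrays, 2 for each of 4 siRNAs, was read on Affymetrix mouse arrays after amplification from 5 ng of total RNA, per the labels' protocols. The deposited values are array intensity on a linear scale, made by the authors with RMA per the submitters' processing notes, which state no settings. The log2 of these values was taken here. Of 45101 probe sets 64 controls were left out. The 45037 others were fitted in 1 limma model (limma 3.58.1, R 4.3.3) over all 8 arrays, with Benjamini-Hochberg adjustment over all of them. The fit was tested on simulated data. A gene is its brightest probe set among the 34945 with 1 symbol, while 932 probe sets had several symbols and 9160 had none. Such a choice can miss a transcript form that another probe set reads. Precision is limited by having 2 arrays per group.

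The genes named were chosen by rule: Psmd14, Pou5f1, Nanog and Sox2, the 30 largest rises and 15 largest falls among called genes, up to 5 called members of each list or the 2 with the smallest p where none was called, the 8 called genes with the widest gap between groups, the 8 whose siPsmd14 arrays differed most, and the 5 farthest above each other knockdown. Other list members and the genes said to stand outside the lists were named once their values were known. The members, lists, motifs and printed promoters were chosen with earlier results of these data known.

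Arrays of different groups share replicate numbers. The correlation of the differences between replicates 1 and 2 across probe sets lay between -0.217 and 0.242 for the 6 pairs of groups, and 0.0558 for siNonTarget and siPsmd14, so the numbers were not taken to pair the arrays. Alternatives covered the threshold, filters on dim probe sets, normalization, the model, the choice of probe set, an added constant and each array left out.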

Additional observations from a re-analysis of the deposited data

Results flagged for a closer look

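Probe sets without a single gene symbol lay outside the comparison by gene. Of these, 32 were called higher and 28 lower in siPsmd14 than in siNonTarget (limma, adjusted p under 0.05), which is 0.317% and 0.277% of 10092. The 28 lower ones had a median change of -0.879, and none of them overlapped between the groups. They were called from these same arrays, so the lack of overlap is not separate support for them. Of all genes, called or not, 24.1% had both siPsmd14 arrays below both controls. The 28 stand against 34 falls among the 18193 genes.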

How the results depend on the processing

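Of 343 genes called (309 higher, 34 lower), a threshold of 0.01 kept 54 (53 and 1), and adding 16 intensity units before log2 gave 114 (97 and 17). At least 2-fold left 5 falls, array weights gave 14, and a fit of only the 4 arrays gave 14. With 1 array left out, the calls ranged from 10 to 663, the rises from 9 to 465 and the falls from 0 to 198, the highest each time without siPsmd14 replicate 2. The cause was not tested. The fit with a replicate block gave 291 calls, 273 higher and 18 lower; 262 of the 291 were among the 343, and 83 of 103 called genes covered by the naming rule stayed called. Those 103 kept their direction in each alternative that measured them. The direction of Sox2, which was not called, turned without siNonTarget replicate 2 (0.01) and without siPsmd14 replicate 1 (0.05), its range with 1 array left out being -0.28 to 0.05, and that of Tap1, not called either, turned with the median over its probe sets (-0.06), an alternative that gives no calls. Counts of all calls stayed between 234 and 409 under the remaining alternatives. With 2 arrays per group, a change near the median SE of 0.151 log2 was not detectable, and changes well above it also went uncalled. The smallest called rise was 1.5-fold and the smallest called fall 1.51-fold. Changes as large as those of Fgf4 (-0.89) and B2m (0.91) missed the threshold.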

Other observations

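Some genes whose brightest probe set was not called had another probe set called lower in siPsmd14. In all, 46 probe sets that were not their gene's brightest were called lower, from 43 genes, and for 40 of these 46 probe sets the gene's brightest one was not called. Probe sets of this kind that were called higher numbered 160, and for 75 of them the gene's brightest one was not called. Foxp1, a transcription factor gene, had a change of -1.50 (limma, adjusted p = 0.0306) on one probe set and -0.28 (adjusted p = 0.687) on its brightest. Enah, which encodes an actin regulator, had -1.41 (adjusted p = 0.0155) and -0.34 (adjusted p = 0.339). The splicing factor gene Tra2a had -1.47 (adjusted p = 0.0451) and 0.08 (adjusted p = 0.885). These probe sets were picked out after their values were seen, and which transcript forms they read was not checked.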
